A study of Glycine soja with 4 samples.

Results

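The miRNAs described here were miR395, miR397, miR398, miR399, miR408 and miR2111, which are known in plants for their response to the supply of phosphate, sulfate or copper. Members were all names with one of these miRNA numbers in the deposited lists, p3 and p5 strands included, and each distinct sequence was counted once. They came to 9 names with 9 distinct sequences, out of 217 distinct sequences in both lists, and 1 target gene out of 78. Of the 6 numbers, 5 had at least 1 listed sequence, and no miR408 name was listed in either library.

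The lists came from roots of the wild soybean (*Glycine soja*) genotype BW69, which the study had chosen for its tolerance of aluminum (Al). Germinated seedlings were moved into nutrient solution at pH 4.5 that held either 0 µmol/L AlCl3 (Al-free) or 50 µmol/L AlCl3 (Al-treated), and root ends were taken at 7 times between 1 and 96 h. Roots of all times were pooled for each condition, giving 1 library of small RNAs and 1 degradome library each, so replicates were lacking, and every test below sets the reads of 2 libraries against each other rather than the conditions. The lists summed to 30411 Al-free and 44493 Al-treated reads, with a median of 10 reads per listed sequence in each. A single miRNA, gso-miR2218, took 23.9% of the Al-free reads and 42.8% of the Al-treated reads.

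A plant miRNA guides an Argonaute protein to a transcript with a nearly complementary site, where the transcript is usually cut. In Arabidopsis, miR399 and miR2111 accumulate when phosphate is short. miR399 acts on the transcript of PHO2, an enzyme that marks phosphate transporters for degradation, and miR2111 acts on a Kelch-repeat F-box transcript. In the legume Lotus japonicus, miR2111 moves from shoot to root and acts on the F-box gene TOO MUCH LOVE, which limits nodulation. miR395 accumulates when sulfate is short and acts on ATP sulfurylases and a sulfate transporter. miR397, miR398 and miR408 accumulate when copper is short and act on transcripts of copper proteins, namely laccases (miR397 and miR408), Cu/Zn superoxide dismutases (miR398) and plantacyanin (miR408).

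The sequences are shown because the names alone do not tell which of them are related. Each is written 5′ to 3′ as deposited (T for U), with bases 2 to 8, the seed, in capitals.
PN-miR2111a: tAATCTGCatcctgaggttt
PC-29-3p: cTAGTCCTtgggatgcagattacg
PN-miR395a: tGAAGTGTttgggggaactct
PN-miR397a: cATTGAGTgcagcgttgatg
PN-mir397b-p5: tCATTGAGtgcagcgttgatg
PN-miR398a and PN-miR398b, shared: tGTGTTCTcaggtcacccctt
PN-miR398b, second sequence: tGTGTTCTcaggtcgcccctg
PN-mir398a-p5: cGGAGGAGtgaatctgagaacac
PN-mir398b-p5: gAGTGGATctgagaacacaagg
PN-miR399a: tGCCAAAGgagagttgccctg

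PC-29-3p is no member by its name. The deposited lists give it as a predicted candidate, whereas the table of known miRNAs that accompanies the study gives the same sequence the name PN-miR2111. It was included for comparison, with its values already known. Without gaps, PN-miR2111a paired with PC-29-3p over 20 positions, with 16 Watson-Crick pairs, 3 G:U pairs and 1 mismatch, and PC-29-3p ran past PN-miR2111a by 2 bases at each end. Only PC-29-3p thus had a 3′ overhang, whereas the arms of a miRNA duplex usually have one each, and whether both came from one precursor was not tested.

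The 9 member sequences were 20 to 23 nt long, 5 of them 21 nt, and 6 began with T. Among all listed sequences, 40.6% began with T. Their 8 different seeds left 1 shared seed, that of both miR398 mature sequences, which differ from each other by the substitutions A15G and T21G (shared sequence first, positions counted from the 5′ end). PN-miR397a equals PN-mir397b-p5 without its first base, so their seeds are shifted by 1 base. No listed sequence other than the members had one of these seeds at bases 2 to 8.

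Most of these miRNAs had few reads in the lists. Of the 9 sequences, 7 had at most 5 reads in each library, as did 68 of all 217 sequences. The members together held 40 Al-free reads, 0.132% of those listed, and 72 Al-treated reads, 0.162%. Levels are given in RPM, the reads for each 1000000 clean reads of a library, which are those left after adaptor, short and junk reads were removed. The sum of the members was 5.69 RPM without Al and 9.88 RPM with Al.

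**Figure D1:**
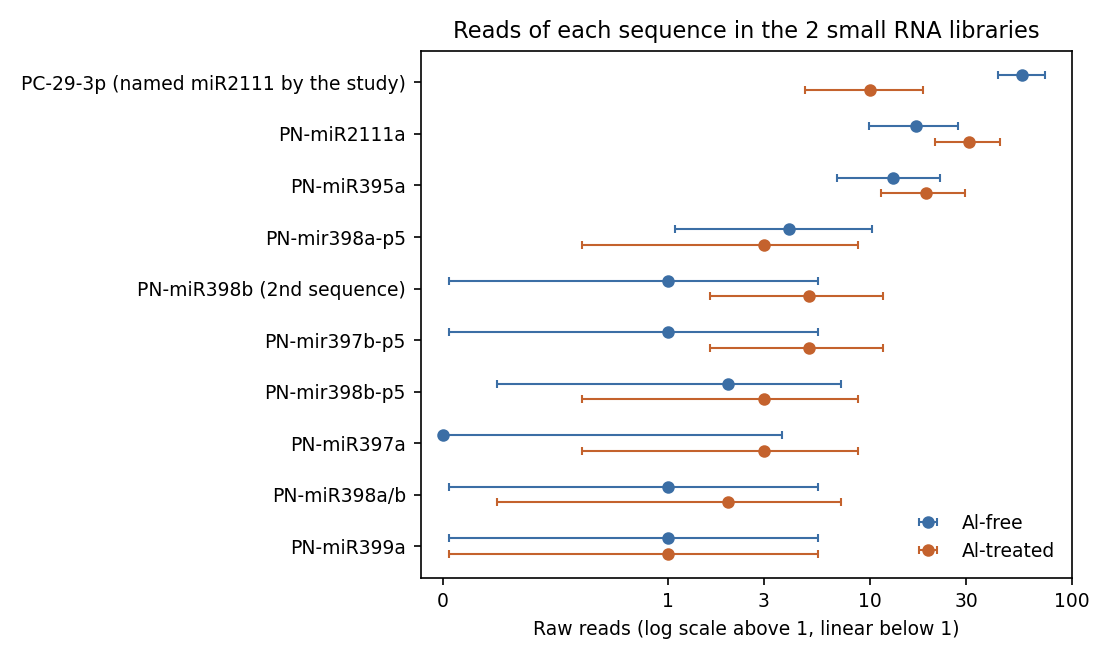
Raw reads (horizontal axis, log scale above 1 and linear below) of each member sequence and of PC-29-3p in the Al-free library (blue) and the Al-treated library (orange), 1 library each. Bars are exact 95% Poisson intervals and cover counting error only. PC-29-3p, with 57 and 10 reads, is the only sequence whose intervals do not overlap.

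Levels were compared as the log2 ratio of RPM, Al-treated over Al-free, and its 95% interval was derived from an exact binomial (Clopper-Pearson) interval. Intervals and limits cover counting error only, and reads without molecular identifiers are not independent molecules. A sequence was tested if it had at least 10 reads, or 20 for a predicted candidate, in at least one library, and was called where its log2 ratio reached 1 or -1. Of all sequences 86 met this minimum, and 44.2% of these were called, 29.1% as higher with Al and 15.1% as lower. Only 2 members met it, PN-miR2111a and PN-miR395a, and neither was called.

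PN-miR2111a, the miR2111 strand known to guide cleavage, had 17 Al-free and 31 Al-treated reads. The levels of 2.42 and 4.25 RPM differed by 0.82 on the log2 scale (interval from -0.08 to 1.76, adjusted exact p = 0.0894, exact binomial test with Benjamini-Hochberg adjustment over the 86 sequences). The higher count in the Al-treated library was thus within counting error. With 48 reads in all, 32 of them would have had to lie in the Al-treated library for an unadjusted p under 0.05.

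PC-29-3p went the other way, with 57 Al-free and 10 Al-treated reads. Its level was 8.10 and 1.37 RPM, 5.90-fold lower in the Al-treated library (log2 ratio -2.56, interval from -3.70 to -1.58, adjusted exact p = 7.57e-09), and 2 of the 86 tested sequences had a lower ratio. Because it was included with this difference known, neither its test nor the contrast with PN-miR2111a below is independent support.

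The balance between these sequences was inverted between the libraries. In the Al-free library PC-29-3p had 3.35 reads for each read of PN-miR2111a, and in the Al-treated library PN-miR2111a had 3.10 reads for each read of PC-29-3p. PN-miR2111a made up 23.0% of the reads of both without Al (exact interval from 14.0 to 34.2) and 75.6% with Al (exact interval from 59.7 to 87.6). The odds ratio (conditional estimate) was 10.1 (exact interval from 3.92 to 28.3, two-sided Fisher's exact test p = 4.92e-08). This contrast is made within each library and needs no scaling of one library to the other. The sum of both sequences was 74 Al-free and 41 Al-treated reads (log2 ratio -0.90, interval from -1.49 to -0.33). The sum and PN-miR2111a alone thus differed in direction, so a level given for the miR2111 family depends on whether PC-29-3p is counted in it.

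**Figure D2:**
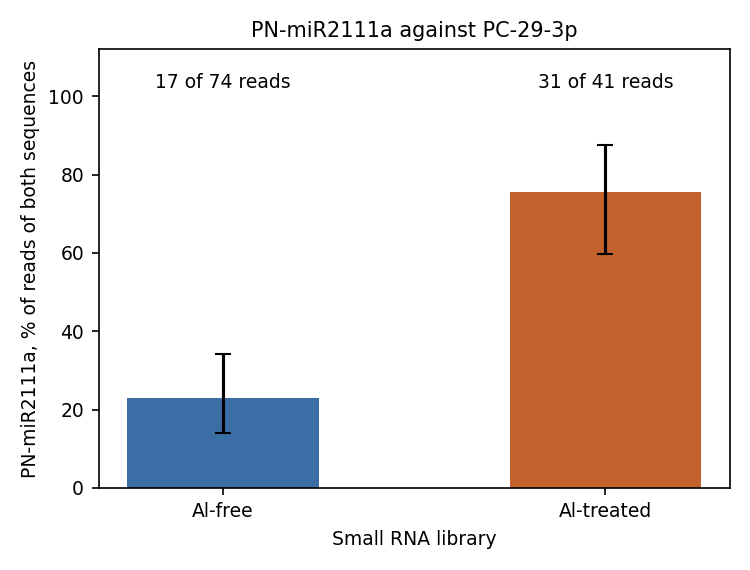
Share of PN-miR2111a in the reads of PN-miR2111a and PC-29-3p (vertical axis, percent) in each small RNA library, with exact 95% intervals. The share was 23.0% of 74 Al-free reads and 75.6% of 41 Al-treated reads, and the intervals do not overlap.

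PN-miR395a, of the family that acts on sulfate assimilation, had 13 Al-free and 19 Al-treated reads. This gave 0.50 on the log2 scale (interval from -0.60 to 1.64, adjusted exact p = 0.469), so no difference was detectable at this depth, and the interval also covers a doubling. It took 0.0427% of the listed reads in both libraries, and its direction therefore turned, to a log2 ratio of -0.0015, when the libraries were scaled by their listed reads.

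The copper-linked miR397 and miR398 were each present at few reads. For miR397, which acts on laccases, PN-mir397b-p5 had 1 Al-free read and 5 Al-treated reads. Its shorter form PN-miR397a was not listed without Al and had 3 reads with Al. Against a limit of 3 reads for a count of 0, the latter gives no fold. The sum of both forms was 1 Al-free read and 8 Al-treated reads (log2 ratio 2.95, interval from 0.05 to 8.42). The lower bound lay so near 0 that each other scaling tried took it below 0, to between -0.45 and -0.04.

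For miR398, which acts on superoxide dismutases, the sequence shared by PN-miR398a and PN-miR398b had 1 Al-free read and 2 Al-treated reads. The second PN-miR398b sequence had 1 and 5 reads. The opposite strand was listed too, PN-mir398a-p5 with 4 and 3 reads and PN-mir398b-p5 with 2 and 3 reads. The 4 miR398 sequences summed to 8 Al-free and 13 Al-treated reads (log2 ratio 0.65, interval from -0.73 to 2.13), which does not tell a fall from a rise. The p5 strands made up 6 of 8 miR398 reads without Al (75.0%, exact interval from 34.9 to 96.8) and 6 of 13 with Al (46.2%, exact interval from 19.2 to 74.9). These intervals overlap, and in both libraries they include an equal share of both strands.

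Taking miR397 and miR398 as one copper-linked group, a grouping made after the values had been seen, 9 Al-free reads stood against 21 Al-treated reads. The log2 ratio of this sum was 1.17 with an interval from -0.02 to 2.48. Of its 6 sequences, 5 had a higher level in the Al-treated library and 1, PN-mir398a-p5, a lower one. Of all 217 sequences, 58.1% were higher. The 5 include PN-miR397a with 0 and 3 reads. All 6 are forms or strands of miR397 and miR398 with few reads, so they are not separate observations.

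PN-miR399a, the phosphate-linked miRNA for which a target was listed, had 1 read in each library. Its log2 ratio of -0.05 had an interval from -6.35 to 6.24, which leaves the difference between the libraries undetermined. No split of 2 reads can give an exact p under 0.241.

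**Figure D3:**
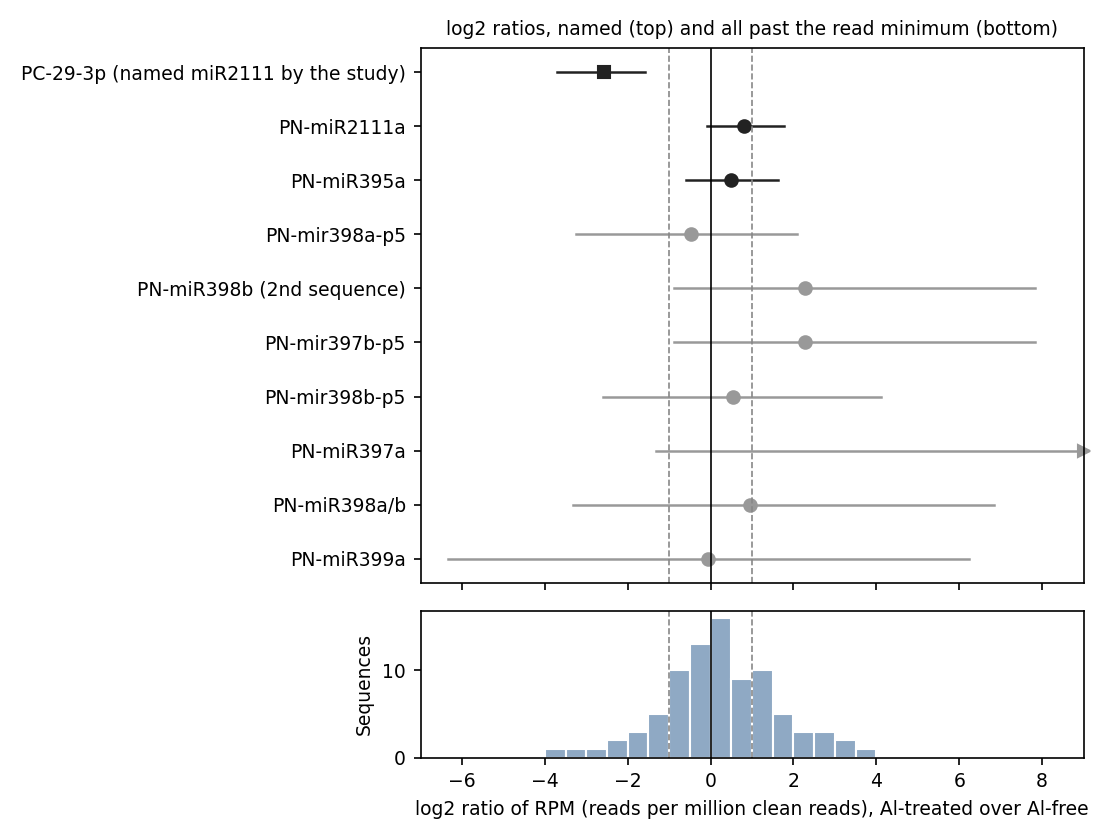
Upper panel: log2 ratio of RPM, Al-treated over Al-free, of each member (circles) and PC-29-3p (square) with 95% intervals, in black where the read minimum was met and in grey where it was not. PN-miR397a, with 0 Al-free reads, is drawn as an interval that is open to the right. Dashed lines mark log2 ratios of -1 and 1. Lower panel: number of sequences by log2 ratio, for the 86 sequences that met the minimum. The interval of PC-29-3p lies wholly below -1, and the interval of each member includes 0.

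Over all 9 members, 7 had a higher and 2 a lower RPM in the Al-treated library, PN-miR395a among the 7. Of all 217 sequences 58.1% were higher, and the median log2 ratio of those that met the read minimum was 0.25. Without a read minimum, and with a count of 0 set to its limit of 3 reads, 2 members were past a log2 ratio of 1 (PN-mir397b-p5 and the second PN-miR398b sequence) and 0 were past -1, where 24% and 12.9% of all 217 sequences were. Both had 1 Al-free read and 5 Al-treated reads with an unadjusted exact p of 0.219, which is within counting error. The sum over all members, 40 and 72 reads, gave 0.80 on the log2 scale (interval from 0.22 to 1.39). Scaled by the listed reads instead, of which gso-miR2218 holds the most, it gave 0.30 (interval from -0.28 to 0.89). This sum leaves out PC-29-3p, which had 57 Al-free and 10 Al-treated reads. Were PC-29-3p counted in it, the Al-free reads would outnumber the Al-treated reads, so its direction depends on that choice.

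The order of the levels was set by few reads. PN-miR2111a and PN-miR395a led the members in both libraries, at ranks 60 and 70 among the listed sequences of the Al-free library and at ranks 52 and 69 in the Al-treated library. The 17 and 13 Al-free reads of this pair did not differ beyond counting error, since PN-miR2111a held 56.7% of them (exact interval from 37.4 to 74.5), nor did their 31 and 19 Al-treated reads (62.0%, from 47.2 to 75.3). In the Al-free library PN-miR395a stood above the next member, PN-mir398a-p5, by 13 reads to 4 (76.5%, from 50.1 to 93.2). In the Al-treated library it stood above the next members, PN-mir397b-p5 and the second PN-miR398b sequence, by 19 reads to 5 (79.2%, from 57.8 to 92.9). Among the members below these steps, no neighbours in the order differed beyond counting error in either library. Neighbours were set by the same counts that the intervals use, and the intervals were not adjusted for the number of pairs. Reads of different sequences also depend on how well each is ligated and amplified, so this order describes the libraries.

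The read totals set what could have been seen. A sequence needed at least 5 reads over both libraries before any split could give an exact p under 0.05, and 3 of the 9 members, PN-miR397a, PN-miR399a and the shared miR398 sequence, had fewer. For PN-mir397b-p5 and the second PN-miR398b sequence, all 6 reads of each would have had to lie in one library, where 5 did.

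Other miRNA numbers linked to nutrient supply in Arabidopsis were counted as a list: miR167, miR169, miR393, miR826 and miR5090 (nitrogen), miR778 and miR827 (phosphate) and miR857 (copper). Only miR167, miR169 and miR393 were listed, with 7 sequences, of which 4 met the read minimum and 1 was called higher and 0 lower, against the 29.1% and 15.1% of all tested sequences. The called sequence was PN-miR169c, of the family that acts on NF-YA transcription factors, with 17 Al-free and 47 Al-treated reads (log2 ratio 1.42, interval from 0.59 to 2.31, adjusted exact p = 0.000853). The median log2 ratio of the 4 was 0.72, that of the 2 members that met the minimum was 0.66, and that of all 86 was 0.25.

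In the degradome lists, which name genes whose transcripts carried 5′ ends at a predicted miRNA cleavage site, 1 of the 6 numbers had a target. PN-miR399 was listed with Glyma14g36650, which the study annotated as an inorganic phosphate transporter, in the Al-free list and not in the Al-treated list. No target was listed in either library for the other 5 numbers, including those with more reads than miR399. No other miRNA name listed Glyma14g36650.

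The Al-free list was the shorter one, with 41 genes against 70 in the Al-treated list, and 33 genes were in both. Glyma14g36650 was 1 of 8 genes found in the Al-free list alone, which were 19.5% of that list, and PN-miR399 was the only one of its 17 miRNA names that the Al-treated list lacked. The Al-treated list had 37 genes of its own, 52.9% of that list, and 6 miRNA names that the Al-free list lacked. The deposited lists hold no reads, so how far a gene was from being listed in the other library cannot be read from them, and reads at the cleavage sites were not analysed here. The single read of PN-miR399a in each small RNA library gives no informative ratio to set beside the target.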

How the data were processed

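The deposited small RNA files held raw counts of reads for each listed miRNA. The authors filtered out adaptor, short and junk reads as well as mRNA, Rfam and repeat matches, assigned the remaining reads to miRBase 18.0, allowing 2 mismatches, and added predicted candidates with ACGT101-miR 4.2 (versions per the labels or the methods). Names without reads were not listed. The authors called targets with CleaveLand 3.0 and ACGT301-DGE 1.0, and the deposited degradome files pair miRNA names with gene identifiers and hold no other value.

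Reads were counted once per distinct sequence and scaled by the clean-read totals that the study gives for each library, whose log2 ratio was 0.05. Python 3.11.15 with SciPy 1.17.1 and NumPy 2.4.6 was used for the exact binomial tests (two-sided), Clopper-Pearson 95% intervals, Benjamini-Hochberg adjustment at 0.05 and Fisher's exact test, and matplotlib 3.10.9 for the figures. The procedure was tested on simulated Poisson counts. Apart from set shifts, these varied between libraries by counting error only, so the check does not cover variation between replicate libraries. The values of the fold threshold and read minimums follow the study's methods. Asking for the minimum in either library is a reading of these methods. The study took its ratios from its own normalized reads, so its calls can differ from those here.

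Every member was named. Members, lists and tests were chosen with earlier results of these data known. Alternatives were 4 other scalings, a pseudocount of 1, other read minimums, counting by name, and other forms of the tests. None of the 78 target identifiers was found in the reference table of *Glycine soja* genes, so genome positions were not used here.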

Additional observations from a re-analysis of the deposited data

How the results depend on the processing

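Relative to scaling by clean reads, each log2 ratio changed by -0.11 with the factors behind the study's normalized reads, by -0.20 with the median of ratios, by -0.50 with the summed listed reads and by -0.09 with these sums without gso-miR2218. PN-miR395a turned to -0.0015 with the summed listed reads. PN-miR2111a kept a log2 ratio above 0 and an adjusted exact p above 0.05 under each alternative (0.32 to 0.82, p from 0.0894 to 0.622), and PC-29-3p stayed below -1 (-3.06 to -2.45, p from 4.85e-13 to 7.57e-09). The odds ratio of both does not change with scaling. Taken directly from the read counts rather than as the conditional estimate, it was 10.4, or 3.38 on the log2 scale.

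The counts of sequences past the threshold, 25 higher and 13 lower, became 15 and 23 with the summed listed reads, 52 and 28 without a read minimum, and 11 and 8 where both libraries had to meet it. No paired analysis was possible because each condition had 1 library. Depth limits 7 of the 9 members, which had at most 5 reads in each library.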
